A study of Nicotiana tabacum with 12 samples.

Results

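Leaves of the transgenic tobacco line P3.9a were compared, gene by gene, with leaves of the untransformed cultivar it came from. The comparison was chosen by the line name in the sample labels and takes 6 of the 12 libraries of the series, 3 labelled P3.9a and 3 labelled CK. Both groups are Nicotiana tabacum cultivar TN90, a burley type. CK carries no genetic modification, and P3.9a carries an NtYb1 (NtEGY2) transgene behind the 35S promoter. Plants of both groups grew in 1 field experiment, and the labels give no treatment that differs between them. Top leaves were frozen before they matured. The other 6 libraries belong to P2.4a and P9.10a, which hold the same transgene, and they enter the comparison through a shared estimate of the spread between replicates. Each transgenic group consists of green-stemmed segregants from a single primary transformant, so a difference of P3.9a from CK cannot be told apart from an effect of its insertion site or of the regeneration of that plant. The 35S promoter is active in most leaf cells, not only in those that express the native gene most. The treatment text in the labels lists the P3 plant as P3 4a where titles and line fields have P3.9a, and it also holds wording on roots and zoospores. Groups here follow the titles and line fields. The labels call the 3 libraries of a group biological replicates. The number of plants behind each library is not stated in them.

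EGY2 is known from Arabidopsis as a metalloprotease in the chloroplast membranes that cuts other proteins within the membrane. Burley tobacco lacks functional copies at the Yb1 and Yb2 loci, and it is known for pale stems, low chlorophyll, and leaves that hold much nitrate and little sugar and starch compared with other tobacco types. The submitters state an interest in carbon and nitrogen metabolism when the gene works. The level of the transgene is not analysed here, because the gene table used gives no identifier the name of an EGY gene, and the labels were therefore not checked against it. That table gives symbols but no descriptions, and a gene without a symbol is called by its identifier below.

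Replicate 1 of P3.9a stood apart from the other libraries. On the first principal component of log2 CPM (CPM being counts scaled to library size), which held 26.3% of the variance, it lay at -77.4, while replicates 2 and 3 lay at 22.2 and 27.6 and CK between -26.5 and -11.9. It was more than 2-fold outside both other replicates of its group at 1833 of 39207 genes, against 299 to 707 for each of the other 11 libraries. Log2 changes and tests against CK are therefore given with and without it. Totals ran from 14532204 to 16788583 counts in P3.9a and from 16657112 to 18444571 in CK, and the depth of replicate 1 was the lowest of the 6. Leaf genes were abundant in all 6 libraries, with the summed level of 20 photosystem and light-harvesting genes at 18582 to 22183 CPM in CK and 16626 to 20052 CPM in P3.9a. Of the 10 flower regulators looked for, GLO, SEP3 and SUP had no count in any of the 6 libraries. NtMADS4, NtMADS5, NFL1 and NAG1 had at most 8 counts in a library. FUL1, FUL2 and SOC1 passed the low-count filter, with 746 to 1114, 16 to 50 and 11 to 26 counts per library. The aquaporin gene TobRB7, the only member of the root list, had 12 to 21 counts per library. The alkaloid genes PMT1, MPO1, A622 and BBL were also planned as root markers, and their levels are not given here.

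Leaves of P3.9a differed from CK in 14 genes, 6 of them higher and 8 lower. The largest rise of the 14 was that of LOC107811420, at 1.6 to 2.39 CPM in CK and 48.9 to 80.7 CPM in P3.9a. Among genes with a symbol, NtABS rose, which encodes cis-abienol synthase, an enzyme that makes a labdane diterpene in the glandular trichomes of some tobaccos. The deepest fall was that of LOC107772409. The 14 genes are 0.0357% of the 39207 genes tested with edgeR's quasi-likelihood test and Benjamini-Hochberg adjustment at 0.05, with 0.0153% called higher and 0.0204% lower. At an unadjusted p under 0.05 stood 3361 genes, which is 8.57% of those tested, 1466 higher (3.74%) and 1895 lower (4.83%). P-values measure the spread between these libraries of 1 field experiment.

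**Figure D1:**
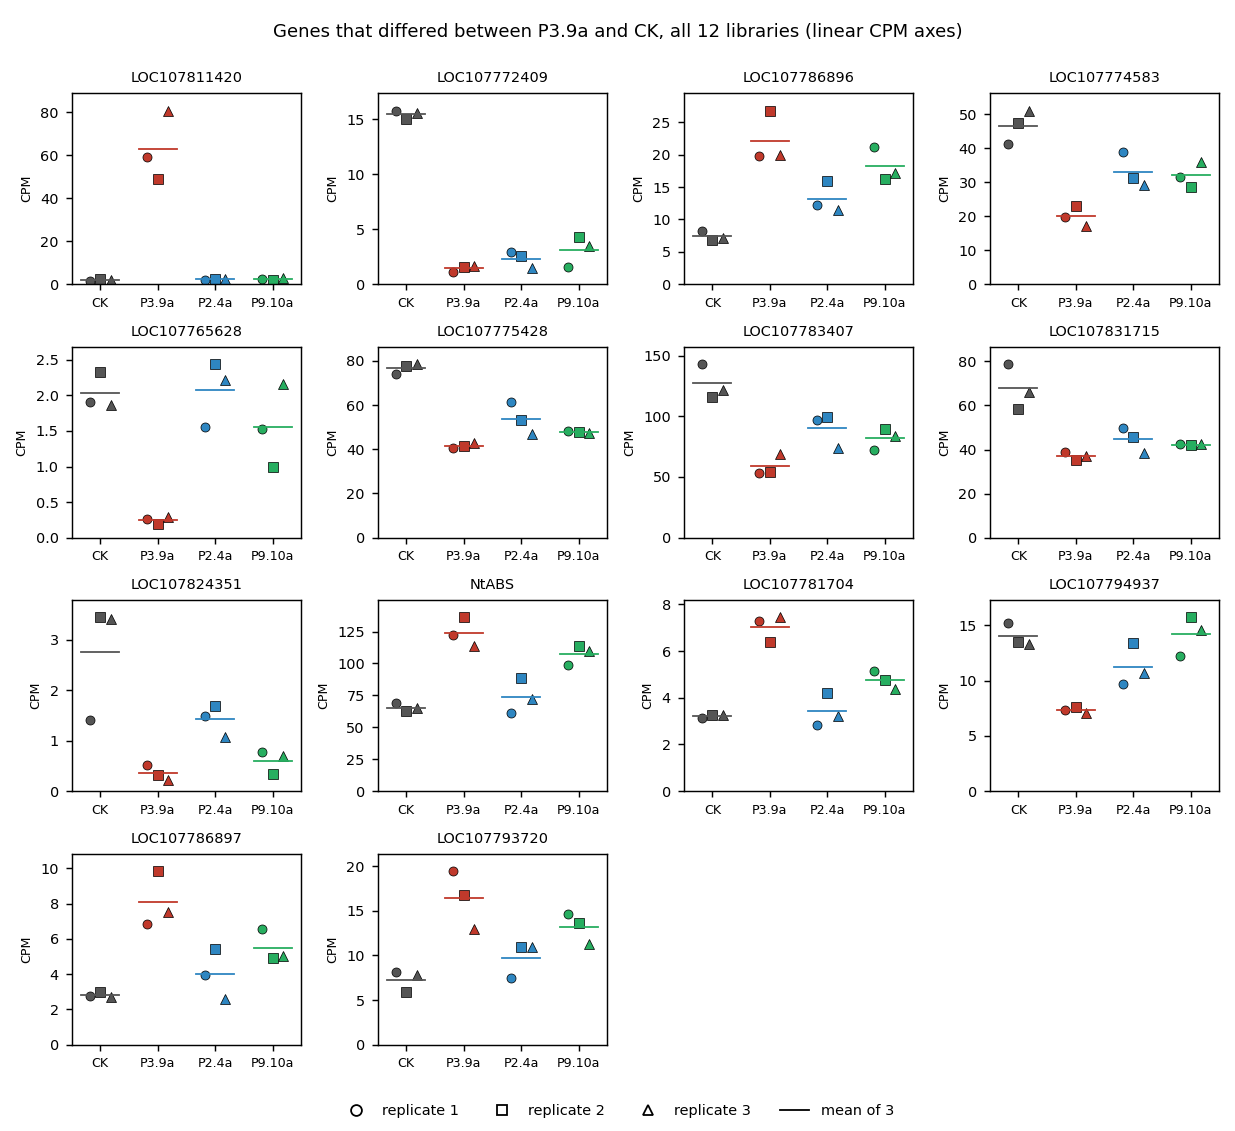
The 14 genes that differed between P3.9a and CK when all 12 libraries were fitted, 1 panel a gene, with linear CPM on the vertical axis and the 4 groups on the horizontal axis. Marker shapes are replicates and bars are means of 3; in each panel all 3 P3.9a libraries lie on 1 side of the 3 CK libraries, as for LOC107811420 with 48.9 to 80.7 CPM against 1.6 to 2.39 CPM.

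LOC107811420 stood at 1.6, 2.39 and 1.93 CPM in CK replicates 1 to 3 and at 59.2, 48.9 and 80.7 CPM in P3.9a replicates 1 to 3. The 2 groups were far apart, and replicate 1 was not unusual among the P3.9a libraries. The rise was 31.7-fold (log2 change 4.99, SE 0.22, edgeR adjusted p = 1.33e-08), and 5.03 on the log2 scale without replicate 1 (adjusted p = 2.13e-09). It rested on 26 to 43 counts per library in CK and 759 to 1410 in P3.9a. The 5 tested genes among its 6 nearest neighbours in the reference gene order did not pass, with log2 changes from -1.69 to 0.12 and adjusted p from 0.374 to 0.91.

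LOC107772409 stood at 15.8, 15 and 15.6 CPM in CK and at 1.1, 1.55 and 1.66 CPM in P3.9a. CK libraries were close to each other and every P3.9a library was far below them. The fall was 10.7-fold (log2 change -3.42, SE 0.31, edgeR adjusted p = 0.000372), and -3.25 on the log2 scale without replicate 1 (adjusted p = 0.00093). LOC107786896 stood at 8.29, 6.88 and 7.21 CPM in CK and at 19.8, 26.8 and 19.9 CPM in P3.9a, with no overlap. It rose 2.97-fold (log2 change 1.57, SE 0.17, adjusted p = 0.00168; 1.65 without replicate 1, adjusted p = 0.000529). LOC107786897, the next gene in the reference order, also rose, from 2.76, 3 and 2.7 CPM to 6.84, 9.86 and 7.55 CPM (log2 change 1.51, SE 0.24, adjusted p = 0.042; 1.63 without replicate 1, adjusted p = 0.0159). Both had their highest level in P3.9a replicate 2. The identity of these neighbours is not known from the table, and reads that fit both could not be told apart if they share sequence.

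NtABS stood at 68.9, 62.4 and 64.9 CPM in CK and at 122, 136 and 114 CPM in P3.9a. Each P3.9a library was above each CK library, by a margin wider than the range within either group. The rise was 1.9-fold (log2 change 0.92, SE 0.15, edgeR adjusted p = 0.0413). It was 0.94 without replicate 1 (adjusted p = 0.0159). In bulk leaf RNA a change in the number of cells of a type and a change in RNA per cell cannot be told apart, and of the 4 trichome genes listed only NtABS was matched to an identifier, so the amount of trichome RNA was not tested.

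The other genes called have no symbol. LOC107774583 stood at 41.4, 47.4 and 51.1 CPM in CK and at 19.9, 23.1 and 17.2 CPM in P3.9a (log2 change -1.22, SE 0.15, edgeR adjusted p = 0.00631). LOC107775428 varied little within groups, with 74.1, 77.7 and 78.6 CPM in CK against 40.6, 41.7 and 42.8 CPM in P3.9a (log2 change -0.88, SE 0.12, adjusted p = 0.0138). In both genes the groups did not overlap and replicate 1 lay among or next to its fellows. LOC107783407 fell from 143, 116 and 122 CPM to 53.3, 54.2 and 68.6 CPM, and LOC107831715 from 78.8, 58.6 and 66 CPM to 39.1, 35.1 and 37.1 CPM (log2 changes -1.11 and -0.87, adjusted p = 0.0239 and 0.0413). LOC107794937 fell from a range of 13.3 to 15.2 CPM to 7.04 to 7.6 CPM (log2 change -0.93, adjusted p = 0.0413). LOC107824351 was low everywhere, at 1.41, 3.44 and 3.41 CPM in CK and 0.517, 0.322 and 0.229 CPM in P3.9a (log2 change -2.94, SE 0.46, adjusted p = 0.0413). The remaining rises were LOC107781704, from 3.13 to 3.28 CPM in CK to 6.38 to 7.44 CPM (log2 change 1.12, adjusted p = 0.0413), and LOC107793720, from 5.88 to 8.17 CPM to 13 to 19.5 CPM (log2 change 1.17, adjusted p = 0.049). Without replicate 1 all 8 passed with the same sign (adjusted p from 0.0107 to 0.0309): the log2 change was -3.29 for LOC107824351, between -1.21 and -0.85 for the other falls and 1.04 for LOC107793720, and LOC107781704 rose 2.15-fold.

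All 14 genes were also called without replicate 1 and by DESeq2, which called 0.622% of genes with all 12 libraries (0.194% higher, 0.428% lower) and 1.83% without replicate 1 (0.659% higher, 1.17% lower). They had all 3 P3.9a libraries on 1 side of CK, as had 4866 of all genes tested (12.4%). LOC107811420, LOC107772409, LOC107786896 and LOC107774583 passed in all 12 fits that left out a library. The count of calls depended on single libraries: it was 105 without P3.9a replicate 1, 5 without replicate 2 and 8 without replicate 3, and 7, 24 and 8 without CK replicates 1, 2 and 3. It was 8 without P9.10a replicate 1 and 7 without P9.10a replicate 3. The other 10 genes each lost the call in at least 2 of these 12 fits, with NtABS, LOC107781704, LOC107794937, LOC107786897 and LOC107793720 passing in 3 of the 12. NtABS kept a log2 change between 0.86 and 0.98 in them, with adjusted p up to 0.201.

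The difference of P3.9a from the mean of P2.4a and P9.10a asks which genes set this line apart from 2 lines with the same transgene. It passed at 3 genes, 0.00765% of those tested, 2 higher (0.0051%) and 1 lower (0.00255%) in P3.9a. Without replicate 1 of P3.9a it passed at 1 gene, LOC107811420 (0.00252%). LOC107811420 stood at 1.88, 2.62 and 2.34 CPM in P2.4a and at 2.24, 2.13 and 2.85 CPM in P9.10a, so that the highest library of each line lay just above the CK range of 1.6 to 2.39 CPM and every one was far below P3.9a. Its level in P3.9a exceeded the mean of both lines by 4.75 on the log2 scale (SE 0.16, edgeR adjusted p = 3.83e-10), and this held in each fit with 1 library left out. LOC107765628 showed the opposite: it had 31, 42 and 29 counts in CK and 4, 3 and 5 in P3.9a, while P2.4a and P9.10a had 15 to 39 counts per library. The P3.9a libraries lay below all 9 others, 8.02-fold against CK (SE 0.40 on the log2 scale, adjusted p = 0.0135; log2 change -3.03 without replicate 1, adjusted p = 0.0159) and 7.06-fold against the other lines (log2 difference -2.82, SE 0.37, adjusted p = 0.0252). The third gene, LOC107826117, stood at 66.7, 65.8 and 61.3 CPM in P3.9a, 27.4 to 36.5 CPM in P2.4a and 27.7 to 36.9 CPM in P9.10a, a difference of 0.97 (SE 0.13, adjusted p = 0.0252). Its CK libraries, at 35.7, 35.2 and 47.9 CPM, also lay below P3.9a, but that difference did not pass (log2 change 0.71, adjusted p = 0.151; 0.69 without replicate 1, adjusted p = 0.0723). Without P3.9a replicate 1 the difference from the other lines no longer passed for LOC107765628 (-2.85, adjusted p = 0.12) or LOC107826117 (0.95, adjusted p = 0.0595). Each of these 2 genes passed in only 2 of the 12 fits with a library left out, with adjusted p up to 0.348.

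Set against each line alone, P3.9a differed in 2 genes from P2.4a, 1 higher and 1 lower (0.0051% of genes, 0.00255% in each direction), and in 2 genes from P9.10a, both higher (0.0051%). Without replicate 1 of P3.9a these counts were 1, higher, against P2.4a (0.00252%) and 2, both higher, against P9.10a (0.00505%). Against CK, P2.4a differed in 3 genes (0.00765%; 0.00255% higher and 0.0051% lower) and P9.10a in 5 (0.0128%; 0.0051% higher and 0.00765% lower). LOC107772409 had log2 changes from CK of -2.74 in P2.4a (edgeR adjusted p = 0.0062) and -2.33 in P9.10a (adjusted p = 0.0167), beside -3.42 in P3.9a. For LOC107786896 the changes were 0.83 in P2.4a (adjusted p = 0.271) and 1.29 in P9.10a (adjusted p = 0.0217), beside 1.57. NtABS stood at 0.18 in P2.4a (adjusted p = 0.688) and 0.72 in P9.10a (adjusted p = 0.198), beside 0.92. All 3 lines were set against the same CK libraries, so their changes are not independent.

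**Figure D2:**
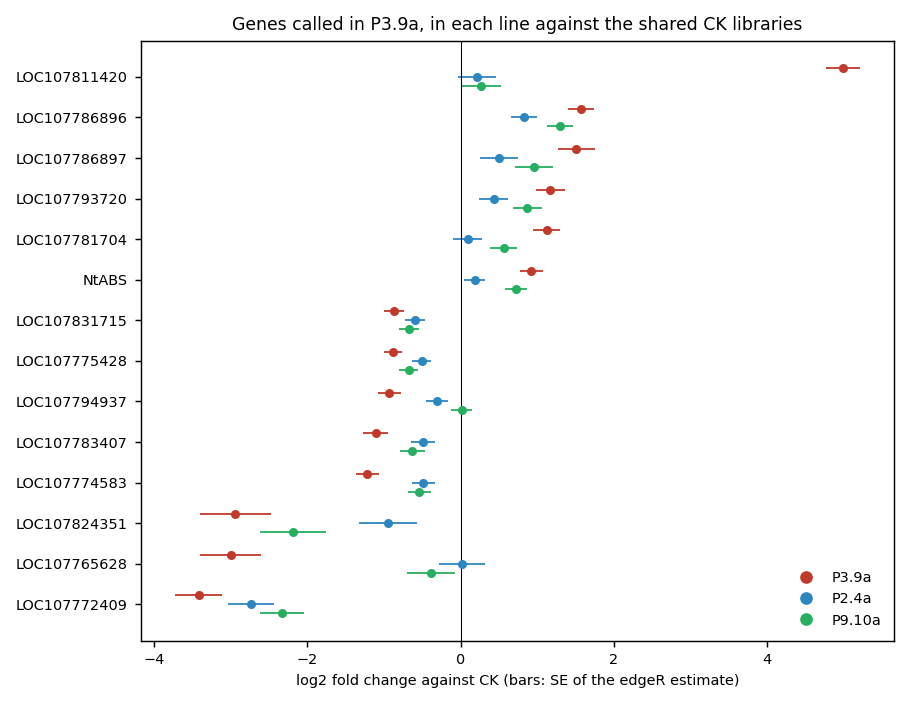
Log2 fold change from CK, horizontal axis, with the SE of the edgeR estimate as bars, for each of the 14 genes called in P3.9a and each line. LOC107811420 lies at 4.99 in P3.9a and at 0.21 and 0.27 in P2.4a and P9.10a; for LOC107765628 P2.4a and P9.10a lie at 0.02 and -0.39, with P3.9a far to the left; the 3 lines share the CK libraries.

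Without replicate 1, the 2 remaining P3.9a libraries differed from CK in 105 genes, 51 higher and 54 lower. These are 0.265% of the 39628 genes then tested, 0.129% higher and 0.136% lower. At an unadjusted p under 0.05 stood 5493 genes, which is 13.9% (6.7% higher and 7.16% lower). The common biological coefficient of variation was 13.8%, against 16.4% with replicate 1. Absolute log2 changes of the 105 ran from 0.60 to 7.29, with a median of 1.04. The 7.29 belonged to LOC107763006, which had no count in CK and passed the low-count filter only through P3.9a. The next largest was 5.03, of LOC107811420. With replicate 1 included, 104 of the 105 passed the low-count filter, and replicate 1 lay on the same side of the CK mean in 80 of these. It lay beyond all 3 CK libraries on that side in 66 of the 105. In 24 it lay inside the CK range, and in 15 it lay beyond all CK libraries on the opposite side. Its median difference from CK was 0.33 for the genes called higher and -0.34 for those called lower, on the log2 CPM scale. With only 2 libraries, the count again moved with single libraries: it was 11 and 5 without P3.9a replicate 2 or 3, 14, 174 and 40 without CK replicates 1, 2 and 3, 368 without P2.4a replicate 3 and 440 without P9.10a replicate 3.

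**Figure D3:**
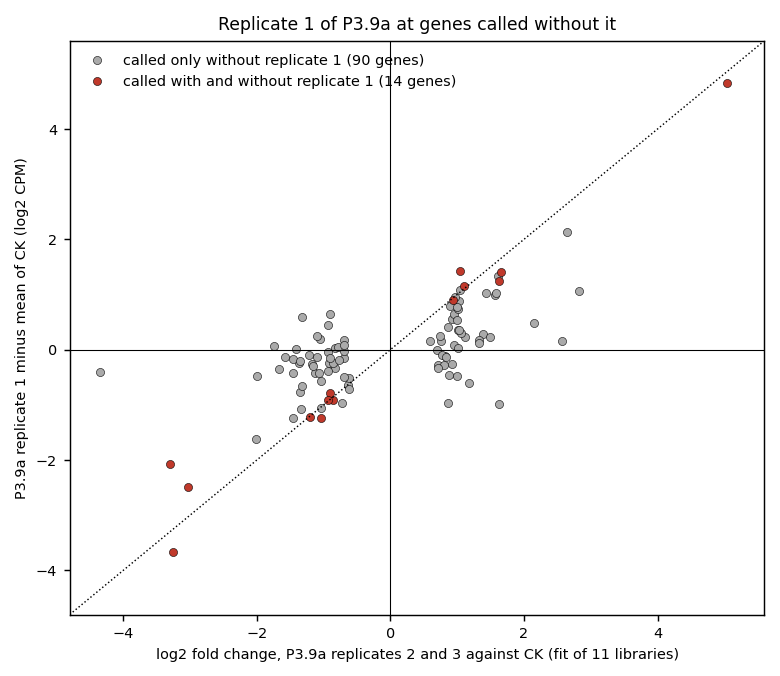
Replicate 1 of P3.9a at the genes called without it: horizontal axis, log2 fold change of replicates 2 and 3 against CK; vertical axis, replicate 1 minus the mean of CK in log2 CPM; 1 point a gene, 104 genes. Of these, 80 have the same sign on both axes, and the dotted line marks equal values.

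Genes with a symbol made up 8 of the 105, where 913 were tested, against 1 of 906 with replicate 1. Over all genes the shares called were 0.265% and 0.0357%. Higher were NtABS, DXS, F3'H1 and a gene with the symbol cyclase. Lower were ADC1A, SEN4, CO and a gene with the symbol HD. Their values follow by pathway.

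In the plastid isoprenoid route, which supplies carotenoids, the chlorophyll side chain and diterpenes, NtABS was called with replicate 1 and NtABS and DXS without it, of 9 genes tested. Over all genes edgeR called 0.0153% higher with replicate 1 and 0.129% without it. DXS encodes 1-deoxyxylulose 5-phosphate synthase, the entry enzyme of that route. It stood at 15.3, 17.3 and 18.9 CPM in CK and at 22.9, 31.3 and 30.6 CPM in P3.9a. All P3.9a libraries were above CK, and replicate 1 was the lowest of them. The log2 change was 0.86 without replicate 1 (edgeR adjusted p = 0.0445) and 0.72 with it (adjusted p = 0.199). LOC107790348 and LOC107818796, which carry the symbol dxs, were called in neither fit. GGPPS2, a geranylgeranyl diphosphate synthase gene, stood at 52.5, 45.5 and 69.1 CPM in CK and 81, 106 and 80.9 CPM in P3.9a without passing (log2 change 0.68, adjusted p = 0.299; 0.75 without replicate 1, adjusted p = 0.129, where DESeq2 gave an adjusted p of 0.0382). The median of the 9 genes was 0.20 with replicate 1 and 0.38 without it, against 0.01 and 0.00 over all genes. All 3 P3.9a libraries lay above CK in 3 of the 9 and below CK in 1, beside 5.8% and 6.61% of all genes.

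Carotenoid genes had a median of -0.27 with replicate 1 and -0.24 without it over 15 genes tested. edgeR called none in either fit. With replicate 1, 4 were lower at an unadjusted p under 0.05, beside 4.83% of all genes, and DESeq2 found none. Without it 6 were lower, beside 7.16% of all genes, and DESeq2 found 1, beside 463 of all genes lower. PSY2, a phytoene synthase gene, stood at 636, 674 and 617 CPM in CK and at 423, 514 and 524 CPM in P3.9a (log2 change -0.40, edgeR adjusted p = 0.498; -0.30 without replicate 1, adjusted p = 0.444). A carotenoid isomerase gene, CRTISO (LOC107805441), stood at 50.5, 56.2 and 52.6 CPM against 42.2, 43.8 and 41 CPM (log2 change -0.33, adjusted p = 0.412; -0.32 without replicate 1, adjusted p = 0.264). In both genes the groups did not overlap, as in 5 of the 15 below CK and none above, beside 6.61% of all genes below and 5.8% above.

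Polyamine and alkaloid genes share steps from arginine and ornithine to putrescine. ADC1A, an arginine decarboxylase gene, stood at 299, 335 and 347 CPM in CK and at 168, 209 and 185 CPM in P3.9a. The groups did not overlap, and replicate 1 was the lowest library. The log2 change was -0.80 with replicate 1 (edgeR adjusted p = 0.0544), just outside the threshold, and -0.72 without it (adjusted p = 0.0478); DESeq2 called it in both. DAO1, which has a diamine oxidase symbol, stood at 4.85, 4.05 and 3.67 CPM in CK and 1.49, 1.87 and 1.77 CPM in P3.9a (log2 change -1.29, SE 0.29, adjusted p = 0.162; DESeq2 adjusted p = 0.0162). Without replicate 1 its change was -1.19 (adjusted p = 0.112; DESeq2 adjusted p = 0.0444). Neither of the other arginine decarboxylase genes separated the groups: ADC2 stood at 167 to 223 CPM in CK and 101 to 260 CPM in P3.9a. Of 25 alkaloid genes listed 6 passed the low-count filter, and edgeR called none of them. DAO1 was the only one of the 6 at an unadjusted p under 0.05 or called by DESeq2. Over all genes, 4.83% with replicate 1 and 7.16% without it were lower at that p, and DESeq2 called 168 and 463 lower.

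Nitrate assimilation begins with nitrate reductase, whose genes are NIA1 and NIA2. NIA1 stood at 789, 523 and 703 CPM in CK and at 213, 486 and 399 CPM in P3.9a, and NIA2 at 654, 402 and 514 CPM against 118, 375 and 320 CPM. In both genes each P3.9a library was below each CK library, and replicate 1 was the lowest by a wide margin. The log2 changes were -0.88 and -0.95 with replicate 1 (edgeR adjusted p = 0.319 and 0.473) and -0.60 and -0.58 without it (adjusted p = 0.2 and 0.256). Over the 10 genes tested of nitrate and ammonium assimilation the medians were -0.29 and -0.28. edgeR, DESeq2 and limma-voom called none in either fit, while 2 were lower at an unadjusted p under 0.05 with replicate 1, beside 4.83% of all genes. Without it 3 were lower and 1 higher, beside 7.16% and 6.7% of all genes.

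In carbon metabolism edgeR called no gene of the lists, and most members had a log2 change below 0. With replicate 1, 18 of 20 photosystem and light-harvesting genes, 4 of 4 Calvin cycle genes and 11 of 16 starch and sucrose genes had a log2 change below 0, beside 19074 of 39207 genes in all. Without it the counts were 17, 3 and 9, beside 19470. The median log2 change of the photosystem and light-harvesting genes was -0.16 with replicate 1 and -0.13 without it, that of the Calvin cycle genes -0.20 and -0.17, and that of the starch and sucrose genes -0.10 and -0.06. Replicate 2 did not share the first 2 shifts. Medians from CK in replicates 1, 2 and 3 were -0.24, 0.01 and -0.28 for photosystem genes and -0.42, 0.06 and -0.45 for Calvin cycle genes. All 3 libraries lay below CK in 1 of 20 photosystem genes, with 1 above, and in 1 of 4 Calvin cycle genes. Members of a list are not replicates. No call was made in either fit. At an unadjusted p under 0.05 with replicate 1 stood 1 of 20 photosystem genes, psbS, and 3 of 16 starch and sucrose genes, all lower, beside 4.83% of all genes. Without it 2 starch and sucrose genes stood there, both lower, beside 7.16% of all genes. DESeq2 called SUT1 alone in either fit, the sucrose transporter gene that loads the phloem, beside 168 and 463 of all genes lower. SUT1 stood at 138, 141 and 160 CPM in CK and at 110, 98.3 and 101 CPM in P3.9a, without overlap (log2 change -0.51, SE 0.13, edgeR adjusted p = 0.239; DESeq2 adjusted p = 0.0123). Without replicate 1 its change was -0.55 (adjusted p = 0.105; DESeq2 adjusted p = 0.00613). In chlorophyll and haem synthesis POR1, a protochlorophyllide reductase gene, stood at 14.7, 13.3 and 10.6 CPM in CK and at 25.4, 19.2 and 21.6 CPM in P3.9a (log2 change 0.78, adjusted p = 0.199; DESeq2 adjusted p = 0.038). Without replicate 1 its change was 0.67 (adjusted p = 0.14; DESeq2 adjusted p = 0.0864). The median of the 14 genes of that list was 0.01 with replicate 1 and 0.16 without it.

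**Figure D4:**
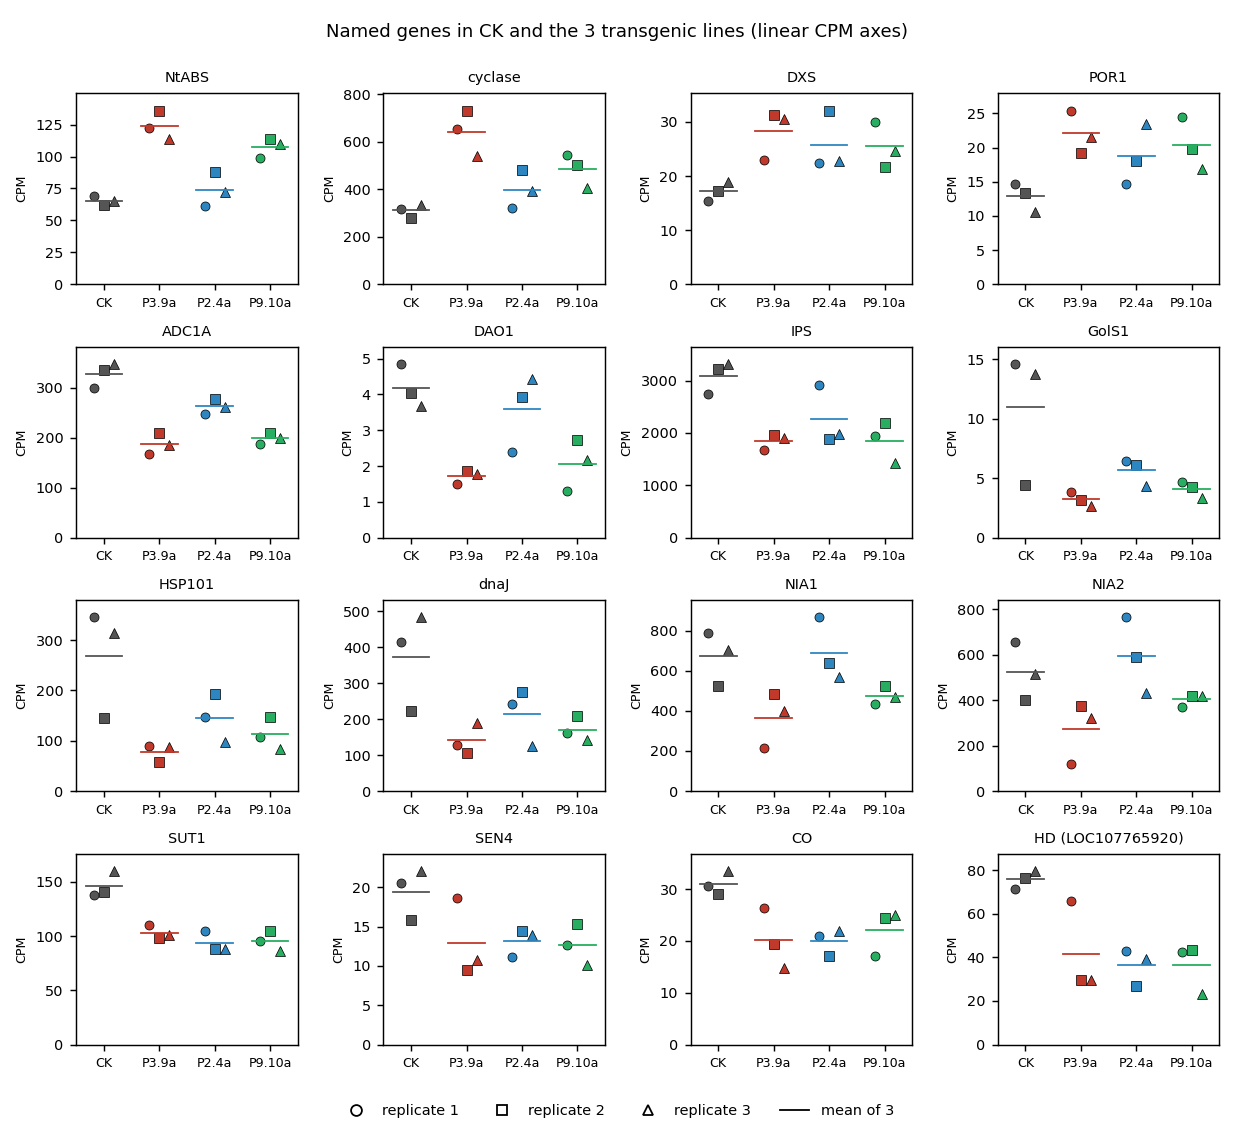
Levels of 16 genes with a symbol in CK, P3.9a, P2.4a and P9.10a, 1 panel a gene, with linear CPM on the vertical axis, marker shapes for replicates and bars for means of 3. NtABS at 114 to 136 CPM in P3.9a lies above CK at 62.4 to 68.9 CPM, while for SEN4 replicate 1 of P3.9a, at 18.6 CPM, lies within the CK range of 15.8 to 22.1 CPM.

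Inositol and galactinol genes were lower in P3.9a in value, but none passed edgeR. IPS, with a symbol for inositol phosphate synthase, stood at 2746, 3222 and 3316 CPM in CK and at 1668, 1962 and 1894 CPM in P3.9a (log2 change -0.75, SE 0.20, edgeR adjusted p = 0.238; -0.68 without replicate 1, adjusted p = 0.172). GolS1, a galactinol synthase gene, stood at 14.6, 4.44 and 13.8 CPM in CK and at 3.87, 3.16 and 2.63 CPM in P3.9a (log2 change -1.76, SE 0.37, adjusted p = 0.149; -1.90 without replicate 1, adjusted p = 0.106). No library of P3.9a reached CK in either gene, though CK replicate 2 came near for GolS1. With and without replicate 1, all 3 genes of the list were lower at an unadjusted p under 0.05, beside 4.83% and 7.16% of all genes. DESeq2 called 2 with it and 3 without it, beside 168 and 463 of all genes lower. Their median was -1.67 with replicate 1, -1.90 without it and -0.93 without CK replicate 3. With replicate 1 that median is the value of the third gene, GolS. All 3 P3.9a libraries lay below CK in 2 of the 3 genes, IPS and GolS1, beside 6.61% of all genes. IPS made up nearly all of the summed level of 2761 to 3332 CPM in CK, and its change was the smallest. In P2.4a and P9.10a, set against the same CK libraries, the medians were -0.94 and -1.41.

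Heat shock genes were also lower in value, with CK replicate 2 again nearest to P3.9a. HSP101, a chaperone that dissolves protein aggregates, stood at 345, 145 and 315 CPM in CK and at 89.9, 57.5 and 88.1 CPM in P3.9a. The cochaperone gene dnaJ stood at 413, 221 and 482 CPM against 129, 107 and 188 CPM. CK replicate 2 was the lowest CK library in both, and still above every P3.9a library. The log2 changes were -1.77 (SE 0.35, edgeR adjusted p = 0.145) and -1.40 (SE 0.34, adjusted p = 0.223). Without replicate 1 they were -1.87 (adjusted p = 0.123) and -1.33 (adjusted p = 0.215). edgeR called none of the 9 heat shock genes in either fit. At an unadjusted p under 0.05, 5 were lower with replicate 1, beside 4.83% of all genes, and 4 without it, beside 7.16%. DESeq2 called 2 lower in each, beside 168 and 463 of all genes. The summed level of the 9 genes was 2952 to 4649 CPM in CK and 2222 to 3236 CPM in P3.9a, so the sums overlapped. Median changes were -0.84 with replicate 1 and -0.71 without it. P2.4a and P9.10a, set against the same CK libraries, had medians of -0.53 and -0.61.

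ER chaperone genes, which help proteins fold in the endoplasmic reticulum, showed how far replicate 1 could set a value. BIP3 stood at 28.2, 27 and 22.8 CPM in CK and at 15.9, 39.4 and 55.6 CPM in P3.9a. Replicate 1 was below CK and the other 2 libraries were above it. Its log2 change was 0.51 with replicate 1 (edgeR adjusted p = 0.743) and 0.88 without it (adjusted p = 0.0688). Over the 8 genes tested the median moved from 0.36 to 0.73, with replicates 1, 2 and 3 at -0.74, 0.52 and 0.91 from the mean of CK. The medians of P2.4a and P9.10a against the same CK libraries were 0.92 and 0.63. In P3.9a edgeR called none. Without replicate 1, 6 of the 8 had an unadjusted p under 0.05, all higher, beside 6.7% of all genes. DESeq2 then called BIP1, BIP2 and BIP3 higher, beside 0.659% of all genes. With replicate 1 no member reached an unadjusted p of 0.05 or a DESeq2 call.

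The remaining genes with a symbol that were called only without replicate 1 differed in where replicate 1 lay. The gene cyclase stood at 318, 280 and 334 CPM in CK and at 655, 731 and 540 CPM in P3.9a, without overlap. Its log2 change was 1.05 with replicate 1 (edgeR adjusted p = 0.0549) and 1.04 without it (adjusted p = 0.0309). For SEN4, CO and HD, replicate 1 lay within or near the CK range. SEN4, which carries a senescence symbol and was the only tested gene of the list on chlorophyll breakdown, stood at 20.5, 15.8 and 22.1 CPM in CK and at 18.6, 9.47 and 10.8 CPM in P3.9a (log2 change without replicate 1 -0.93, adjusted p = 0.0478). CO, named after the flowering regulator CONSTANS of Arabidopsis, stood at 30.5, 29.1 and 33.5 CPM against 26.3, 19.4 and 14.8 CPM (-0.85, adjusted p = 0.0494). HD (LOC107765920) stood at 71.4, 76.3 and 79.7 CPM against 66, 29.6 and 29.5 CPM (-1.35, adjusted p = 0.0445). F3'H1, a flavonoid 3'-hydroxylase gene, was on opposite sides of CK: it stood at 104, 117 and 119 CPM in CK, 57.7 CPM in replicate 1, and 207 and 202 CPM in replicates 2 and 3 (0.86, adjusted p = 0.0494). With replicate 1 these 4 had log2 changes of -0.59, -0.62, -0.86 and 0.46 and adjusted p from 0.343 to 0.791.

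Among the genes without a symbol that were called only without replicate 1, replicate 1 likewise lay with its fellows, among CK, or on the opposite side. LOC107775051 stood at 2.58, 2.66 and 3.35 CPM in CK and at 5.81, 10.6 and 6.24 CPM in P3.9a, all above CK (log2 change without replicate 1 1.56, edgeR adjusted p = 0.0159). LOC107815154 stood at 14.7 to 19.6 CPM in CK and 24.5, 32.8 and 30.2 CPM in P3.9a (0.92, adjusted p = 0.0159). LOC107790406 instead stood at 8.96, 6.83 and 8.11 CPM in CK, at 8.27 CPM in replicate 1 and at 1.93 and 2.75 CPM in replicates 2 and 3 (-1.75, adjusted p = 0.0159). LOC107804135 stood at 309, 212 and 313 CPM in CK and at 249, 98.9 and 86.2 CPM in P3.9a (-1.58, adjusted p = 0.0159). Replicate 1 lay inside the CK range in both of these. LOC107816029 stood at 1.72, 1.55 and 1.35 CPM in CK, at 0.71 CPM in replicate 1 and at 3.67 and 5.84 CPM in replicates 2 and 3 (1.63, adjusted p = 0.0309), with replicate 1 below CK and the others above it. LOC107763006 had no count in CK and 2, 21 and 19 counts in P3.9a; taking a floor of 3 counts over the CK group, its level was at least 14.4-fold higher in P3.9a and at least 20.1-fold higher in replicates 2 and 3. It passed the low-count filter only without replicate 1 and only through P3.9a, so its test is not given as support. P9.10a replicate 3 also had 5 counts. LOC107813413 had the deepest fall of the 105, with 6.69, 2 and 6.76 CPM in CK and 3.36, 0.322 and 0.172 CPM in P3.9a (-4.34, adjusted p = 0.0478); replicate 1 lay inside the CK range.

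Among the 105, 3 genes near each other in the reference order rose: LOC107774026 (log2 change without replicate 1 0.90, edgeR adjusted p = 0.0309), LOC107827130 (1.03, adjusted p = 0.0415) and LOC107812969 (1.00, adjusted p = 0.0478). LOC142176408 and LOC142176409, which lie between LOC107827130 and LOC107812969, are not among the counted identifiers. LOC107774025, directly before LOC107774026 in that order, did not pass (0.57 without replicate 1, edgeR adjusted p = 0.523). LOC107827130 stood at 49.9, 48 and 59.1 CPM in CK and at 96.7, 115 and 98.1 CPM in P3.9a. Replicate 1 was above all CK libraries in each of the 3 genes, and with replicate 1 included their adjusted p ran from 0.0914 to 0.112. The adjacent genes F3'H1 and LOC107826584 were also both called without replicate 1, but in opposite directions (0.86 and -1.07, edgeR adjusted p = 0.0494 for each).

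What set replicate 1 apart was spread over many genes, and is described here with no test. Among genes with a symbol and a mean log2 CPM of 3 or more, it was highest against replicates 2 and 3 at Nthsp26a, a small heat shock protein gene (34.1 against 5.28 and 4.18 CPM), and at the linker histone genes H1c (554 against 128 and 144 CPM) and H1d (538 against 146 and 153 CPM). CK lay between for the histones, at 233 to 350 CPM for H1c. It was lowest at the flavonoid glucosyltransferase genes Nt3GT2 (19 against 93.6 and 95.2 CPM) and Nt3GT1 (6.91 against 33.1 and 34.1 CPM), at CYP82E3, of the nicotine demethylase family (36.2 against 161 and 165 CPM), and at GGPPS1 (29.6 against 126 and 134 CPM). CK had 60.5 to 65.6 CPM of Nt3GT2 and 133 to 198 CPM of CYP82E3. In both, replicate 1 was thus below CK.

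By list, replicate 1 was below both other P3.9a libraries in 9 of 9 cytosolic ribosome genes, 8 of 8 plastid ribosome genes, 7 of 8 ER chaperone genes and 22 of 30 phenylpropanoid genes. It was above both in 16 of 19 ethylene genes and 14 of 17 autophagy genes. Over all genes it was above both in 15714 and below both in 15297 of 39207. Phenylpropanoid genes, which lead to chlorogenic acid, lignin and flavonoids, had medians of -0.72, -0.03 and 0.19 from CK in replicates 1, 2 and 3, and cytosolic ribosome genes -0.43, 0.37 and 0.29. In ethylene genes the medians were 0.29, -0.21 and -0.24. EIL1, an ethylene signalling regulator, stood at 38.4, 31.6 and 39.9 CPM in CK and at 69.1, 30.5 and 28.3 CPM in P3.9a. The median log2 change with replicate 1 and without it was -0.13 and 0.13 for phenylpropanoid genes, 0.11 and 0.37 for cytosolic ribosome genes, and -0.09 and -0.24 for ethylene genes, so of these 3 only that of phenylpropanoid genes changed sign. Whether the leaf in replicate 1 differed in age, position or handling was not tested.

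**Figure D5:**
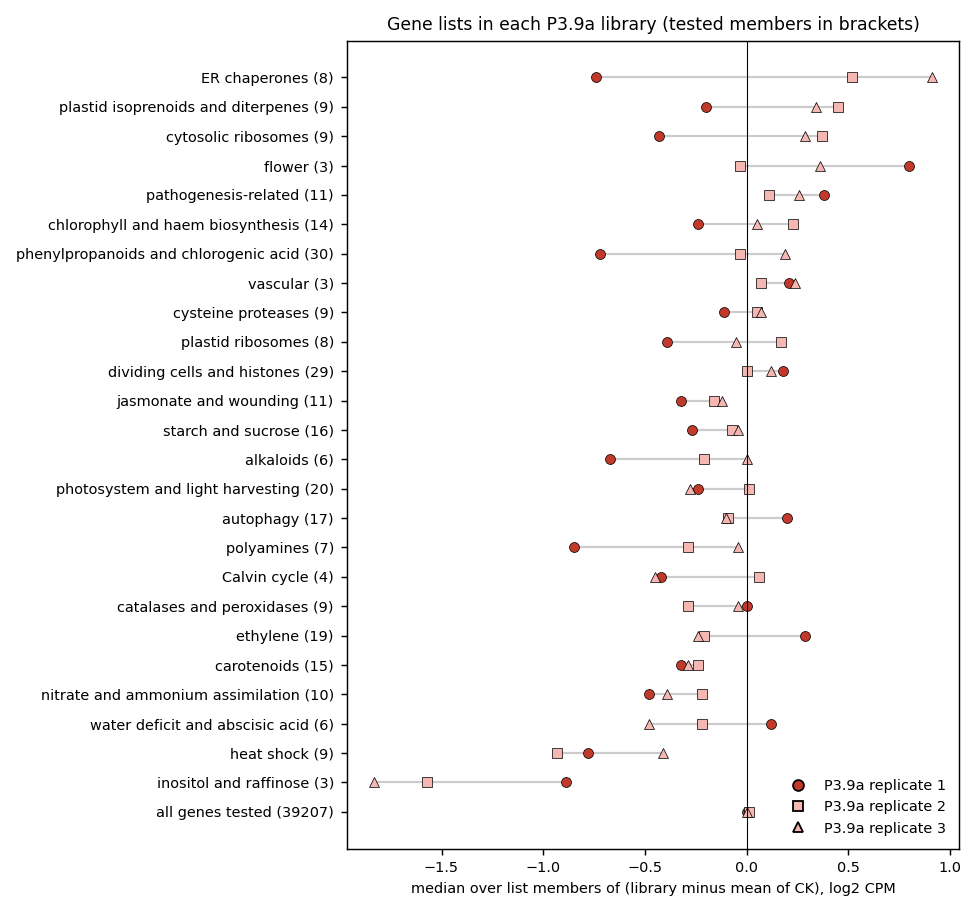
Median over the members of each gene list of the difference from the mean of CK, in log2 CPM, for each P3.9a library, with the number of tested members in brackets. Replicate 1 lies at -0.74 for ER chaperones, where replicates 2 and 3 lie at 0.52 and 0.91, while for heat shock all 3 lie below 0, at -0.78, -0.93 and -0.41.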

How the data were processed

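RNA was sequenced from tobacco leaves in 12 libraries, made with a directional kit per the labels' protocols. The authors deposited whole-number counts per gene, not normalized; the submitters' processing notes name HISAT2 2.1.0, SAMtools and bedtools 2.25.0. No build, annotation, counting rule or strand setting is stated in the labels or headers. Coordinates are therefore left out, and reads of near-identical copies, which are common in this allotetraploid, or of antisense genes may be split or merged. Of 61526 identifiers 49014 matched a reference gene table (assembly ASM71507v2, cultivar K326, for names and gene order only) and 1081 had a symbol or synonym; unmatched ones held 4.43% of counts. No 2 libraries agreed within sampling noise (lowest chi-square per degree of freedom 5.09).

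The tests were run in edgeR 4.0.16 under R 4.3.3 (TMM scaling, filterByExpr with minimum count 10, robust quasi-likelihood fit, Benjamini-Hochberg at 0.05). All 12 libraries shared 1 fit of 4 group means, and a second fit left out P3.9a replicate 1. SE values are the log2 change over the root of F. CPM values use TMM-scaled totals, and log2 CPM a prior count of 2. The fit was also run on simulated counts in which no library stood apart as P3.9a replicate 1 does. That run therefore does not bear on the effect of replicate 1, and its outcome is not used here. DESeq2 1.42.0, limma 3.58.1 (voom, with and without library weights), other size factors, no filter, the 2 groups alone, a replicate block and each library left out were the alternatives. The fits against P2.4a and P9.10a alone without P3.9a replicate 1 were chosen after seeing the data.

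Genes were named by rule: all calls with 12 libraries; up to 8 rises and 8 falls, and all symbols, without replicate 1; the 10 symbols with the smallest p; 2 members a list; up to 5 rises and 5 falls against the other lines; and 6 symbols at each end of replicate 1. LOC107763006, LOC107813413, LOC107816029, LOC107826584, the 3 genes near each other and further list members were named after their values were seen. The members and lists were chosen with earlier results of these data known.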

Additional observations from a re-analysis of the deposited data

Results flagged for a closer look

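The change from CK differed between P3.9a and another line, by a test of the difference itself, for LOC107811420 and LOC107765628. For LOC107811420 the change in P3.9a exceeded that in P2.4a by 4.78 on the log2 scale (SE 0.21, edgeR adjusted p = 2.06e-08) and that in P9.10a by 4.72 (SE 0.21, adjusted p = 2.51e-08), with all 3 P3.9a libraries above all 6 of the other lines. For LOC107765628 the difference between P3.9a and P2.4a was -3.03 (SE 0.40, adjusted p = 0.0313), with all 3 P3.9a libraries below. Its difference from P9.10a was -2.61 (adjusted p = 0.0867). Without P3.9a replicate 1 the differences of LOC107811420 were 4.82 and 4.76 (adjusted p = 3.5e-09 and 4.47e-09), and those of LOC107765628 were -3.06 and -2.64 and did not pass (adjusted p = 0.0912 and 0.229).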

How the results depend on the processing

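The count of 14 genes was 244 with DESeq2 (76 higher, 168 lower), 9 with limma-voom, 65 with library weights, 33 without a low-count filter and 3 with the 2 groups alone, and ran from 5 to 105 with 1 library left out. The 105 genes without replicate 1 became 724 with DESeq2 (261 higher, 463 lower), 210 with library weights, 231 without a filter and 1155 with the 2 groups alone, and ran from 5 to 440. The 3 genes against the other lines became 15 with DESeq2, 1 with limma-voom and 1 with the compared groups alone, and ran from 1 to 3. Without CK replicate 2, 3 of 24 calls were higher and 21 lower, beside 6 and 8 of 14. Replicate numbers did not pair the libraries: 4 of 18 same-number pairs correlated above 0.1, from -0.309 to 0.265. With a replicate block the 3 counts were 4, 7 and 1. DESeq2 size factors gave 14, 94 and 3. Of 25 list medians, pathogenesis-related genes (0.30) moved to 0.03 with limma-voom. With 1 library left out, medians ran from 0.16 to 0.48 for pathogenesis-related genes, -0.43 to -0.28 for nitrate, -1.90 to -0.93 for inositol, -0.30 to -0.05 for jasmonate, -1.09 to -0.57 for heat shock, -0.31 to -0.17 for carotenoids, -0.37 to -0.10 for catalases and -0.14 to 0.16 for autophagy. Of 2010 values of named genes under alternatives, 1729 kept sign and side of the threshold, 220 lost and 52 gained the call, and 9, of genes not called, changed sign: cnd41 (0.02 with library weights), and with 1 library left out cnd41 (-0.11 to 0.05), RPL3B (-0.01 to 0.40), RPL13 (-0.03 to 0.59), PT1 (-0.11 to 0.25), CL17 (-0.21 to 0.05) and TobRB7 (-0.04 to 0.28). The causes were not tested. Genes of a few counts per library, such as LOC107765628, are limited by depth as well as by replicate number.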

Other observations

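Single genes of defence and redox state are given as values, and none of them passed edgeR. All 3 P3.9a libraries were above CK in 1 of 11 pathogenesis-related genes, and below CK in 2 of 11 jasmonate and wounding genes, 1 of 30 phenylpropanoid genes and 2 of 9 catalase and peroxidase genes, beside 5.8% of all genes above and 6.61% below. Counts this small are not read as a result about the lists. TLP1, a thaumatin-like defence gene, stood at 5.89, 9.38 and 12.7 CPM in CK and at 15.2, 24.9 and 27.5 CPM in P3.9a, with all P3.9a libraries above CK (log2 change 1.27, edgeR adjusted p = 0.431; 2.82-fold without replicate 1, adjusted p = 0.229). KED, a wound-response gene of tobacco, stood at 25.5, 26.3 and 41.4 CPM in CK and at 18.1, 14.8 and 16.5 CPM in P3.9a, all below CK (-0.91, adjusted p = 0.232; -0.98 without replicate 1, adjusted p = 0.142), and DESeq2 called it with and without replicate 1 (adjusted p = 0.0333 and 0.0149). The gene hqt, which carries the symbol of the quinate transferase of chlorogenic acid synthesis, stood at 97, 160 and 124 CPM in CK and at 58.7, 91.9 and 53 CPM in P3.9a, again without overlap (-0.91, adjusted p = 0.286; -0.81 without replicate 1, adjusted p = 0.257). The catalase gene cat1 (LOC107828252) stood at 1249, 1300 and 1374 CPM in CK and at 809, 1065 and 926 CPM in P3.9a (-0.49, adjusted p = 0.471; -0.39 without replicate 1, adjusted p = 0.394), and cat1 (LOC107799583) at 1016, 1093 and 1189 CPM against 623, 917 and 747 CPM (-0.53, adjusted p = 0.497; -0.40 without replicate 1, adjusted p = 0.43).

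Genes of plastid protein turnover and of cell division are given as values. The chloroplast protease gene cnd41 stood at 25.5, 24.3 and 28.2 CPM in CK and at 21.8, 26 and 27.6 CPM in P3.9a, with overlap (-0.05, edgeR adjusted p = 0.962; 0.05 without replicate 1, adjusted p = 0.915). Over 8 plastid ribosome genes the median log2 change was -0.08 with replicate 1 and 0.06 without it, over 9 cysteine protease genes -0.00 and 0.07, and over 29 genes of dividing cells and histones 0.09 and 0.03. The summed level of the last list, in which abundant genes weigh most, lay on opposite sides of CK. It was 1523 to 1929 CPM in CK, 2456 CPM in replicate 1 of P3.9a and 1190 and 1158 CPM in replicates 2 and 3. Medians over the 29 genes did not show this, at 0.18, 0.00 and 0.12 from the mean of CK in replicates 1, 2 and 3. Of these genes, cyclin (LOC107793085) stood at 17.4, 16.8 and 16.4 CPM in CK and at 24.9, 22.6 and 28 CPM in P3.9a, all above CK (0.58, adjusted p = 0.184; 0.59 without replicate 1, adjusted p = 0.0921), and DESeq2 called it in both fits (adjusted p = 0.0389 and 0.0436). Phloem and stem genes, which mark vascular tissue, overlapped in sum, with SEO1, SEO2 and COV1 together at 175 to 221 CPM in CK and 214 to 225 CPM in P3.9a.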
